A study of Mus musculus with 16 samples.

Results

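Binding of Oct4 S151M was compared with binding of Oct4defSox2 at day 1 of reprogramming, using the summits of ChIP-seq peaks, the single positions where each peak is highest. Oct4 S151M had 101151 summits and Oct4defSox2 31060, which together make 132211 of the 226962 summits over the 13 ChIP samples of the series. A site counted as shared when the other library had a summit within 100 bp, and as private otherwise. On that rule 13496 Oct4defSox2 sites and 13498 Oct4 S151M sites were shared, forming 13488 mutually nearest pairs, and 17564 Oct4defSox2 and 87653 Oct4 S151M sites were private.

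Both samples were mouse embryonic fibroblasts of the OG2 line, which carry a GFP transgene driven by the Oct4 promoter. Both received Sox2 and Klf4 (SK) by retrovirus together with 1 version of Oct4, both were kept in the chemically defined medium iCD1, and both were collected at day 1 and precipitated with the same lot of an Oct4 antibody. No sort for transduced cells is described for these samples, so cells with little or no virus may be included. Each version was 1 library with no replicate, so every comparison below is between 2 libraries, and its interval covers counting error among sites only.

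Oct4 is a POU factor that reads DNA with a POU-specific domain and a POU homeodomain joined by a linker. It can bind the octamer as a single molecule, the composite SoxOct element beside Sox2, or the palindromic MORE element as a pair of POU molecules, and the SoxOct element is the form found at many enhancers of pluripotent cells. Oct4defSox2 carries exchanges in the surface that touches Sox2, which impair joint binding with Sox2 on SoxOct DNA. The S151M exchange lies at a residue that governs how readily POU factors pair on MORE. The comparison therefore sets a version altered at its Sox2 surface against one altered at its pairing surface, in the same cells, on the same day and with the same antibody.

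The motifs were searched as letters on both strands, in a window of 100 bp to each side of the summit. MORE is the POU word ATGAAT or ATGCAT followed directly by its mirror ATTCAT or ATGCAT, and MORE+1 has 1 A or T between them. The octamer is ATGCAAAT and is part of the SoxOct consensus, so both can be found at the same bases. The Sox motif is CCATTGT or CCTTTGT followed by any base but A, the AP-1 motif is TGACTCA, the RUNX motif is AACCACA or AACCGCA, and the TEAD motif is CATTCC between A or G and A or T. The KLF motif is GGGNGNGGC with C or T and then G or T at the undefined bases, and PORE, another paired POU element, was searched as well. A match is a description of the letters in the window and not a measured contact.

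The sequences below are examples from the highest-ranked sites of each class and motif on mm10. The matched motif is in capitals, mismatched bases included, and the bases around it are in lower case. The sites were picked by their motif, so they do not show how often a class holds it. The motif is the match in the summit's window and need not lie at the summit itself. Its centre was 70.5 bp from the summit in Sort1, 67.5 bp in Crlf2, 39 bp in Dido1 and 7 bp near Sec16b. The match has 1 mismatch in Crlf2, 2 in Dido1 and 2 near Sec16b, and the Dido1 window also holds an octamer. Scores are the −log10 p-value that the peak caller gave each summit. The first pair are shared sites with MORE, and the next pair shared sites with SoxOct.
Sort1 intron, chr3:108304886-108304945, plus strand: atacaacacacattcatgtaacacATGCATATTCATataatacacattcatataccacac
Crlf2 intron, chr5:109558420-109558479, plus strand: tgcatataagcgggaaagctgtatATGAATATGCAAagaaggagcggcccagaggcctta
Dido1 intron, chr2:180709165-180709227, minus strand: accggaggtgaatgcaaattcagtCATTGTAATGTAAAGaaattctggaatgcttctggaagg
Near Sec16b, chr1:157646043-157646105, plus strand: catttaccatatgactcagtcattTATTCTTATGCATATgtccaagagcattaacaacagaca

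In the Sort1 intron, MORE was matched without a mismatch and the scores, 1235 for Oct4 S151M and 664 for Oct4defSox2, were the highest of either library. The window is 93.5% repeat-masked. Sort1 encodes sortilin, a sorting receptor. The intron of Crlf2, a cytokine receptor gene, scored 1177 and 509 at a site 419 bp from the coding start. The SoxOct site in the Dido1 intron scored 803 for Oct4 S151M and 113 for Oct4defSox2, and the intergenic site 119934 bp from Sec16b scored 499 and 205. Wild-type Oct4 also had a summit within 100 bp of these 4 sites at days 1, 5 and 7, except at Sort1 on day 7. The strongest shared sites with no POU motif lay in introns of Celf2 and Naaladl2, with 959 and 1030 for Oct4 S151M and 313 and 198 for Oct4defSox2.

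The private sites are shown in the same way, and were also picked by motif. The first pair are the strongest private Oct4 S151M sites with a MORE element, which in both was MORE+1. The third is the private Oct4 S151M site with SoxOct in Pnpla6, which scored 605 against 731 for the stronger one near Areg. The last 3 are private sites of Oct4defSox2. The motif's centre was 9 bp from the summit in Gnb1, 3 bp in Pcf11, 41 bp in Pnpla6, 33 bp in Nckap5, 59 bp in Gm34623 and 76 bp near Cops2. The match has 2 mismatches in Pnpla6, 0 near Cops2 and 1 in each of the others.
Gnb1 intron, chr4:155533258-155533318, plus strand: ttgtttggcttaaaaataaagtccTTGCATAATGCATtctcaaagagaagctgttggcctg
Pcf11 intron, chr7:92667540-92667600, plus strand: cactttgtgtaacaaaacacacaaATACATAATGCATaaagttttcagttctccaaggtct
Pnpla6 intron, chr8:3528070-3528132, minus strand: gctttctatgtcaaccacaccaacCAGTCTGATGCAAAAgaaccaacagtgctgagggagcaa
Nckap5 intron, chr1:126357078-126357138, plus strand: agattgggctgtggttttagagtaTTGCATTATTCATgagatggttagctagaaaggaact
Gm34623 intron, chr8:60215688-60215750, minus strand: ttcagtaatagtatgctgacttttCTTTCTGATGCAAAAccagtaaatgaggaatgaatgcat
Near Cops2, chr2:125824286-125824337, plus strand: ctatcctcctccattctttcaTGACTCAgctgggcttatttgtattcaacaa

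The Oct4 S151M sites in Gnb1, a G protein subunit gene, and Pcf11, a transcript cleavage factor gene, scored 1095 and 1056, and the nearest Oct4defSox2 summits were 49164 and 70601 bp away. None of the other 11 ChIP samples had a summit within 100 bp of either. The Pnpla6 site scored 605, with the nearest Oct4defSox2 summit at 24720 bp, and wild-type Oct4 had a summit there at day 1. The other 3 private Oct4 S151M sites named by the rule were closer to Oct4defSox2 summits, at 1283 bp near Areg, 3692 bp in Srebf2 and 1898 bp near Mettl18, and those near Areg and Mettl18 had a wild-type Oct4 summit at day 1. For Oct4defSox2 the strongest private sites were weaker and often close to an Oct4 S151M summit. Nckap5 scored 155 with the nearest Oct4 S151M summit at 8698 bp, in a window that is 94.5% repeat-masked, Gm34623 scored 91.4 with one at 274 bp, and the AP-1 site near Cops2 scored 144 with one at 146 bp. Of the 6 Oct4defSox2 private sites named by the rule, the other 3 lay near Adamdec1, in Upp2 and in Plekhs1, with an Oct4 S151M summit 130 to 238 bp away. Thus 5 of these 6 had an Oct4 S151M summit within 274 bp, outside the 100-bp rule, and all 6 had a wild-type Oct4 summit at day 1. These picked sites do not stand for their class. Over all private Oct4defSox2 sites, 19.1% had an Oct4 S151M summit within 250 bp and 27.9% within 500 bp. A wild-type Oct4 summit at day 1 stood at 3.52% of them.

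The first question was how far the binding sites of the versions coincide. Of the Oct4defSox2 sites, 43.5% had an Oct4 S151M summit within 100 bp (95% interval 42.9 to 44.0), against 1.08% of positions moved 10 kb away, a difference of 42.4 percentage points (41.8 to 42.9). Of the Oct4 S151M sites, 13.3% had an Oct4defSox2 summit (13.1 to 13.6). The gap between these shares, 30.1 points (29.5 to 30.7), accompanies lists that differ 3.26-fold in length. Scores also differed, with a median of 19.5 (quartiles 11.2 and 42.1) for Oct4 S151M and 11.2 (7.87 and 18.3) for Oct4defSox2, so that 80.7% and 58.6% of sites scored at least 10. Sequencing depth, ChIP yield and protein amount cannot be told apart from the version of Oct4 in the length of a list.

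At equal numbers the gap closed by construction. With Oct4 S151M held to its 31060 highest-scored sites, those with a score of 34 or more, 6263 Oct4defSox2 sites were shared, 20.2% against 0.343% at the moved positions, a difference of 19.8 points (19.4 to 20.3). The overlap changed little with the number taken. Among the 500 highest-scored sites of each library 19.4% were shared (16.2 to 23.1), among 5000 it was 18.2% (17.1 to 19.3), and among 20000 19.7% (19.2 to 20.3). The strongest Oct4defSox2 sites were nearly all found somewhere in the full Oct4 S151M list, with 96.8% of the top 500 and 78.4% of the top 5000. The reverse held less, since 67.6% of the top 500 and 36.4% of the top 5000 Oct4 S151M sites were found in the full Oct4defSox2 list. The tops of the lists thus held largely different sites, although most strong Oct4defSox2 sites carried some Oct4 S151M summit.

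**Figure D1:**
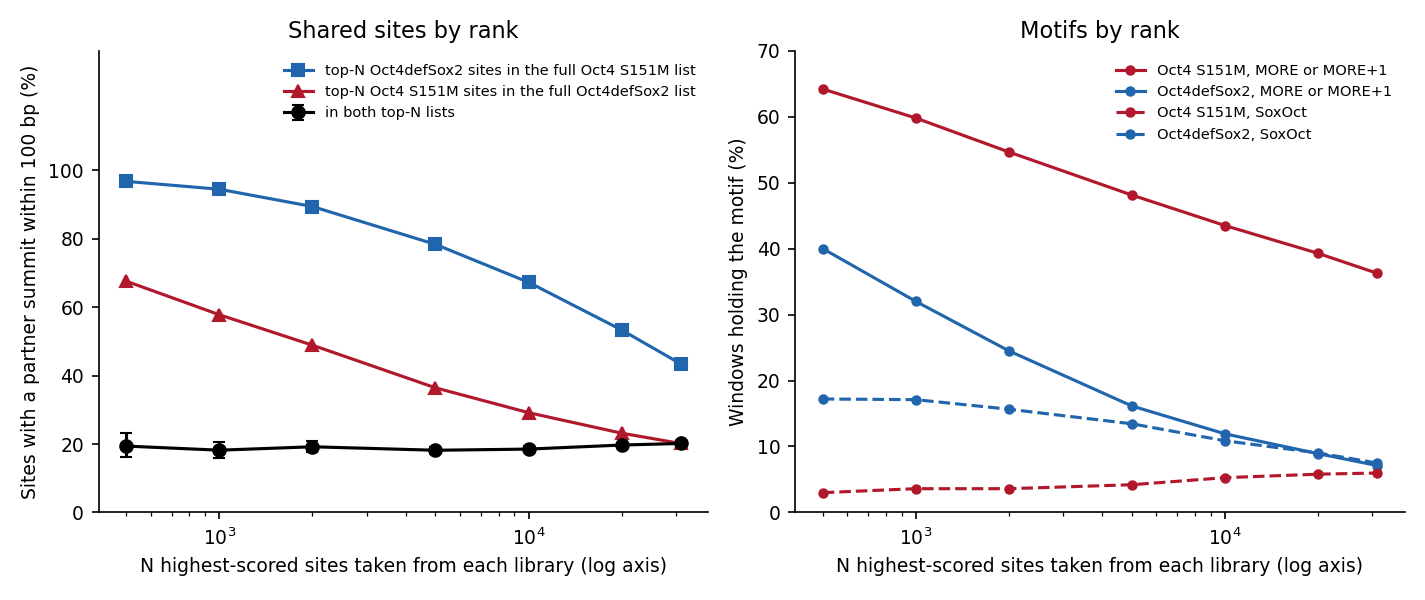
Left, the share of the N highest-scored sites of each library with a summit of the other library within 100 bp, in percent against N on a log axis, and right, the share of those sites' windows with MORE or MORE+1 (solid) or SoxOct (dashed). The overlap of equal lists stays between 18.2% and 20.2%, and MORE lies higher in Oct4 S151M (red) at every N.

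Shared summits lay close together. The median distance within a pair was 31 bp (quartiles 14 and 56), and 42.5% of pairs were within 25 bp. The share of Oct4defSox2 sites with an Oct4 S151M summit grew from 8.35% within 10 bp to 30.7% within 50 bp, 54.2% within 250 bp and 63.4% within 1000 bp. Of the private Oct4defSox2 sites, 19.1% (18.5 to 19.7) still had an Oct4 S151M summit within 250 bp and the median distance to the nearest was 3227 bp, whereas 3.85% (3.72 to 3.98) of private Oct4 S151M sites had an Oct4defSox2 summit that near and their median distance was 23617 bp. The sequence changed gradually with this distance, with no step at the 100-bp boundary. Oct4defSox2 sites within 25 bp of an Oct4 S151M summit held MORE or MORE+1 in 20.4% and SoxOct in 14.6% of windows, those at 50 to 75 bp in 9.15% and 11.2%, those at 75 to 100 bp in 5.49% and 8.11%, those at 100 to 125 bp in 3.07% and 6.24%, and those at 150 to 250 bp in 0.838% and 2.96%.

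Sharing followed the score in both libraries. From the highest-scored decile of Oct4defSox2 sites to the lowest, the shared percentage fell from 85.0% (83.7 to 86.2) to 19.8% (18.4 to 21.2). In Oct4 S151M it fell from 29.0% (28.1 to 29.9) to 8.86% (8.32 to 9.43). The ranges of the libraries overlap only at their ends, since every decile of Oct4 S151M but the highest was shared less often than the lowest decile of Oct4defSox2.

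**Figure D2:**
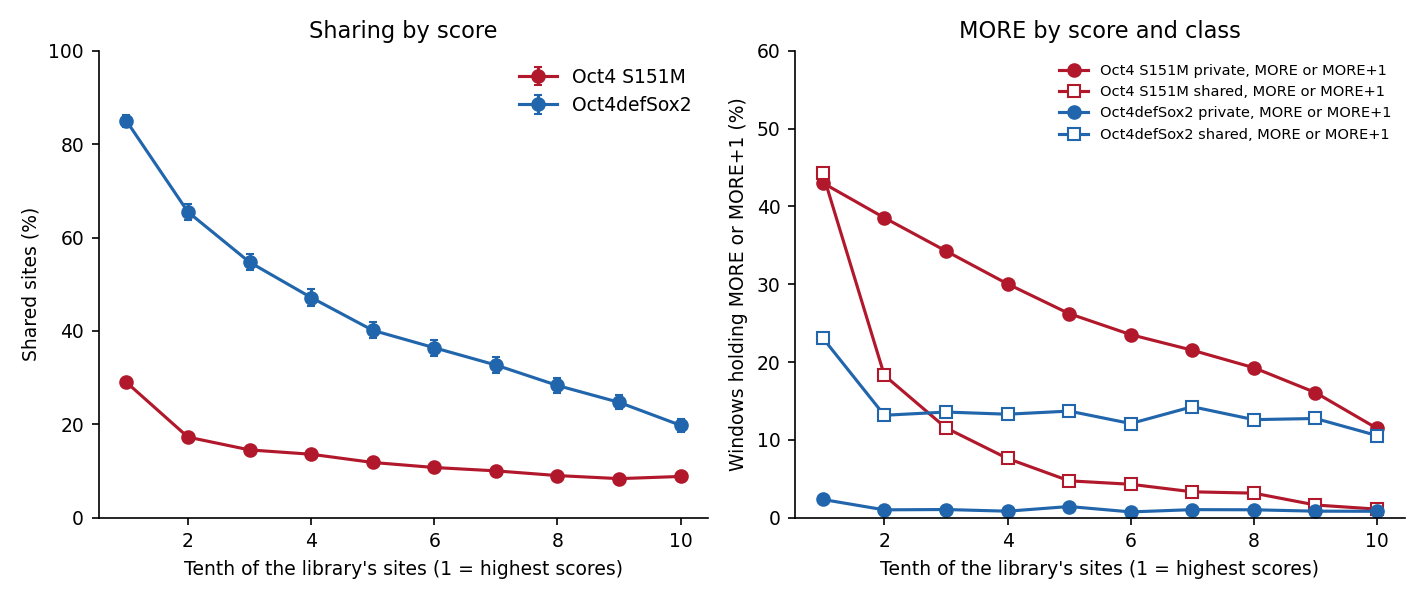
Sites of each library in deciles by score, from the highest (1) to the lowest (10), with the percentage shared within 100 bp and its Wilson 95% interval at left, and at right the percentage of windows with MORE or MORE+1 in private (filled) and shared (open) sites. Private Oct4 S151M sites run from 43.0% down to 11.5%, and private Oct4defSox2 sites stay between 0.759% and 2.36%.

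The second question was which POU elements each version bound. MORE and its spaced form were the most frequent POU elements of Oct4 S151M and were about as frequent as SoxOct in Oct4defSox2. MORE or MORE+1 was found in 24.5% of Oct4 S151M windows (24.2 to 24.7) and 7.12% of Oct4defSox2 windows (6.83 to 7.41), a difference of 17.3 points (16.9 to 17.7), while windows 2 kb away held it in 0.814% and 0.805%. MORE alone was in 18% and 5.17%, and MORE+1 in 6.75% and 2.05%. At equal numbers the Oct4 S151M share rose to 36.3% and the difference to 29.2 points (28.5 to 29.8), and in the top 500 the shares were 64.2% and 40.0%. The direction for MORE was thus the same with long and short lists, while the size of the difference ran from 17.3 to 29.2 points between the full and the equal lists. It also rested on the match rule, with 1.75 points (1.55 to 1.93) for exact matches and 34.7 points with 1 more mismatch over all sites, and 5.24 and 47.5 points at equal numbers.

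SoxOct went the other way by a small margin. It was found in 5.86% of Oct4 S151M windows (5.72 to 6.01) and 7.50% of Oct4defSox2 windows (7.21 to 7.79), a difference of -1.63 points (-1.96 to -1.31), against 1.13% and 1.19% at the flanks. At equal numbers the difference was -1.52 points (-1.91 to -1.13), and it was smaller under several settings, with -0.623 points (-1.05 to -0.195) without repeat-masked windows, -0.876 in windows of 50 bp to each side and -0.583 with 1 mismatch fewer. It was wider among the strongest sites, with 3.00% against 17.2% in the top 500, a difference of -14.2 points (-17.9 to -10.6). With 1 more mismatch allowed per motif these differences turned to 0.267 points (-0.298 to 0.828) over all sites and 1.44 points (0.734 to 2.14) at equal numbers, so the small margin over whole lists rests on how closely the element must match. Exact SoxOct matches were few, 64 windows in Oct4 S151M and 34 in Oct4defSox2. The SoxOct share of Oct4defSox2 fell with score, from 15.3% in the highest decile to 3.67% in the lowest, whereas that of Oct4 S151M ran between 5.03% and 6.45% over its deciles.

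The octamer, the site of a single POU molecule, was in 6.82% of Oct4 S151M and 8.83% of Oct4defSox2 windows, a difference of -2.01 points (-2.37 to -1.67) over flanks of 1.70% and 1.61%. PORE was at 0.955% and 0.824%, below its flanks of 1.03% and 0.982% in both. No POU element was found in 66.4% of Oct4 S151M and 79.4% of Oct4defSox2 windows, a difference of -13.0 points (-13.5 to -12.4). With 1 mismatch fewer allowed that difference turned to 0.621 points (0.224 to 1.02). MORE matches of Oct4 S151M mostly carried a mismatch.

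Shared and private sites of a library differed in the same elements. Of private Oct4 S151M sites 25.8% held MORE or MORE+1 (25.6 to 26.1), and of private Oct4defSox2 sites 1.02% did (0.881 to 1.18), close to the 0.840% of their flanks and 24.8 points (24.5 to 25.1) lower. Shared sites stood between, with 15.4% at their Oct4 S151M summits and 15.0% at their Oct4defSox2 summits. Within Oct4defSox2 shared sites therefore held more MORE than private ones by 14 points (13.4 to 14.7), and by 26.2 points at equal numbers and 50.6 in the top 5000. With exact matches this was 3.94 points, and the difference between the private classes 3.38 points. Within Oct4 S151M they held less, by a difference of -10.4 points (-11.1 to -9.71). That sign turned among the top 5000 sites of each library, at 12.2 points (8.60 to 15.7), and with exact matches only, at 0.618 points (0.272 to 0.986). In the highest-scored decile of Oct4 S151M the shared and private percentages were close, at 44.2% and 43.0%, and in the lowest decile they were 1.12% and 11.5%.

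SoxOct was more frequent at shared than at private sites of both libraries. It was in 12.5% of shared and 4.84% of private Oct4 S151M sites, a difference of 7.70 points (7.13 to 8.28), and in 12.4% of shared and 3.71% of private Oct4defSox2 sites, a difference of 8.71 points (8.09 to 9.33). Between the private classes the difference was 1.13 points (0.803 to 1.43), and it turned to -1.91 points (-2.30 to -1.52) at equal numbers, with 4.16% in Oct4 S151M and 6.07% in Oct4defSox2. Among the top 5000 of each library the Oct4defSox2 difference between shared and private sites turned to -7.69 points (-9.56 to -5.55). At equal numbers, where the private sites of Oct4defSox2 include those with a weaker Oct4 S151M summit, SoxOct was in 13.1% of shared and 6.07% of private Oct4defSox2 sites.

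**Figure D3:**
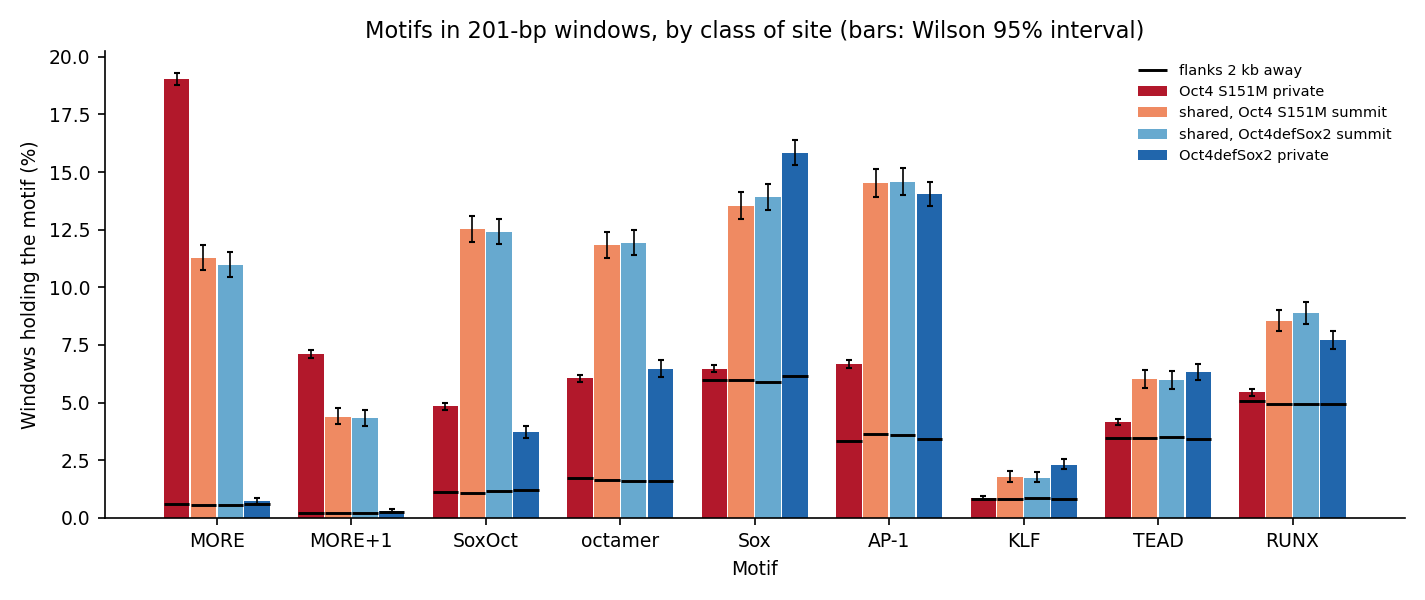
Percentage of windows holding each motif, for private Oct4 S151M sites, for shared sites at the summit of either library, and for private Oct4defSox2 sites, with Wilson 95% intervals as error bars and black lines for flanks 2 kb away. MORE and MORE+1 stand at 19% and 7.11% in private Oct4 S151M sites and at 0.712% and 0.307% in private Oct4defSox2 sites, while AP-1 and Sox motifs are higher in the latter.

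Read the other way, the element in a window went with how often the site was shared. Oct4defSox2 sites with MORE or MORE+1 and no SoxOct were shared in 91.9% (1919 of 2089; 90.6 to 93). Those with SoxOct and no MORE were shared in 70.9% (1564 of 2207; 68.9 to 72.7), those with the octamer alone in 51.5% and those with no POU motif in 36.0%. MORE sites exceeded SoxOct sites by 21 points (18.8 to 23.2), and by 46.6 points (44.0 to 49.2) at equal numbers, where 79.8% and 33.1% were shared. In Oct4 S151M the order was reversed. Its SoxOct sites were shared in 30.9% (29.7 to 32.2) and its MORE sites in 8.25% (7.91 to 8.61), a difference of 22.7 points (21.4 to 24), and at equal numbers the values were 51.2% and 15.8%. Over the full lists a MORE site of Oct4defSox2 was thus nearly always one of Oct4 S151M, and a MORE site of Oct4 S151M rarely one of Oct4defSox2. Of the Oct4 S151M windows with an exact MORE, 17.5% were shared.

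At sites bound by both versions, MORE went with a higher rank in Oct4 S151M. Among the 13488 pairs, ranked by score within each library, 75.6% of the 1985 with MORE and no SoxOct ranked higher in Oct4 S151M (73.7 to 77.5), against 38.9% of the 1652 with SoxOct and no MORE (36.6 to 41.3) and 44.3% of those with no POU motif (43.3 to 45.4). MORE pairs exceeded SoxOct pairs by 36.7 points (33.6 to 39.7), and SoxOct pairs differed from those with no POU motif by -5.39 points (-7.93 to -2.79). The median Oct4 S151M score was 160 at MORE pairs and 31.1 at SoxOct pairs, while the median Oct4defSox2 score was 17.8 and 17.4. Fold enrichment, deposited for Oct4 S151M, had a median of 30.5 at MORE pairs and 9.62 at SoxOct pairs. At pairs with no POU motif the median score was 24.3 for Oct4 S151M and 14.6 for Oct4defSox2. Over all pairs Spearman's rho between the scores was 0.271, a description of pairs that lie in the same 2 libraries.

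Private MORE sites of Oct4 S151M were weaker than shared ones. Their median fold enrichment was 8.91 (quartiles 6.15 and 15.2), against 30.5 (15.4 and 58.0) at shared MORE sites. Private sites with no POU motif had a median of 6.55 and private SoxOct sites of 6.32. The MORE match lay at a median of 17.5 bp from the summit at private Oct4 S151M sites and 10.5 bp at shared ones, where it lay 20.5 bp from the Oct4defSox2 summit. At private Oct4defSox2 sites the few MORE matches lay 35.5 bp away, and SoxOct matches lay between 24 and 33 bp from the summit in every class.

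The third question was whether the versions bound the same form of MORE. Oct4 S151M sites held mostly matches with a mismatch, 15.2% of windows against 2.78% with an exact match, while in Oct4defSox2 the figures were 3.54% and 1.63%. More than 1 separate MORE or MORE+1 match was found in 1173 Oct4 S151M windows, 115 Oct4defSox2 windows and 0 of the 17564 private Oct4defSox2 windows, which allows a share of up to 0.0219% by the Wilson interval. The mismatch fell at different bases. Counting from the outer end of the POU word, position 3 carried it in 49.7% of such Oct4 S151M matches (48.9 to 50.5) and 28.6% of those of Oct4defSox2 (26.0 to 31.3), whereas position 1 carried it in 27% (26.3 to 27.7) and 44.0% (41.1 to 47).

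The same was seen in single words, which are given with the mismatched base in lower case.
Most frequent in Oct4 S151M: ATaCATATGCAT
Most frequent in Oct4defSox2: ATGAATATGCAT
More frequent in Oct4defSox2 as well: ATGAATATTCAT
Words were counted over 17501 MORE matches of Oct4 S151M and 1543 of Oct4defSox2, fewer than the 18211 and 1606 windows that held MORE. The first word made up 17.3% and 5.31% of the counted matches, a difference of 11.9 points (10.6 to 13.1). The second made up 6.37% and 18.1%, a difference of -11.7 points (-13.7 to -9.84), and the third 1.80% and 7.91%, a difference of -6.11 points (-7.57 to -4.85). These differences lay in the private sites of Oct4 S151M, where the words made up 18.3%, 5.20% and 1.32%. At its shared sites they made up 5.81%, 19.2% and 7.11%, and at the same sites in Oct4defSox2 5.64%, 19.5% and 7.47%. Windows of a shared site cover mostly the same DNA in both libraries, so this likeness follows from sharing and is no comparison of the versions. The exact word ATGCATATGCAT was less uneven, with 7.20% and 4.99%. Among MORE+1 matches 1 word, ATGAATAATGCAa, made up 13.9% in Oct4 S151M and 31.1% in Oct4defSox2, and 84.9% and 96.4% of these windows were masked as repeats over at least 50% of their bases. In the other windows it made up 2.68% (138 of 5147; 2.27 to 3.16) and 1.75% (7 of 401; 0.848 to 3.56), so its excess in Oct4defSox2 was not seen outside repeats. The MORE words kept their direction there, with 13.02% against 4.55% for the first, 7.17% against 18.1% for the second and 2.31% against 8.64% for the third.

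The distance between the paired POU words set the versions apart as well. With exact words and any bases between, the directly joined form was in 2.78% of Oct4 S151M and 1.63% of Oct4defSox2 windows. A spacing of 2 bp was in 2.85% of Oct4 S151M windows (2.75 to 2.95), and it was scarce in Oct4defSox2, at 0.316% (0.259 to 0.384), a difference of 2.53 points (2.41 to 2.65) over flanks of 0.0648% and 0.0644%. Spacings of 6, 1 and 4 bp followed in Oct4 S151M, at 1.39%, 0.962% and 0.791%, against 0.219%, 0.235% and 0.177% in Oct4defSox2, and the odd spacings 3, 5 and 7 bp stayed between 0.149% and 0.264%. Only 3.47% of the Oct4 S151M windows with the 2-bp spacing were shared, compared with 17.5% of those with the joined form. Of the Oct4 S151M windows with the 2-bp spacing, 45.0% were masked as repeats over at least 50% of their bases. In the windows that are not masked, Oct4 S151M held the joined form in 2.48% and the 2-bp form in 1.99%, so that the 2-bp form was the less frequent there. Of these windows, 1.37% (1094 of 79819) in Oct4 S151M and 0.194% (55 of 28420) in Oct4defSox2 held the 2-bp form and neither MORE, MORE+1 nor another of these spacings, a difference of 1.18 points (1.08 to 1.27). By the same count the 6-bp form was in 0.253% and 0.0739% and the 4-bp form in 0.115% and 0.0493%, far below their shares over all windows of Oct4 S151M.

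**Figure D4:**
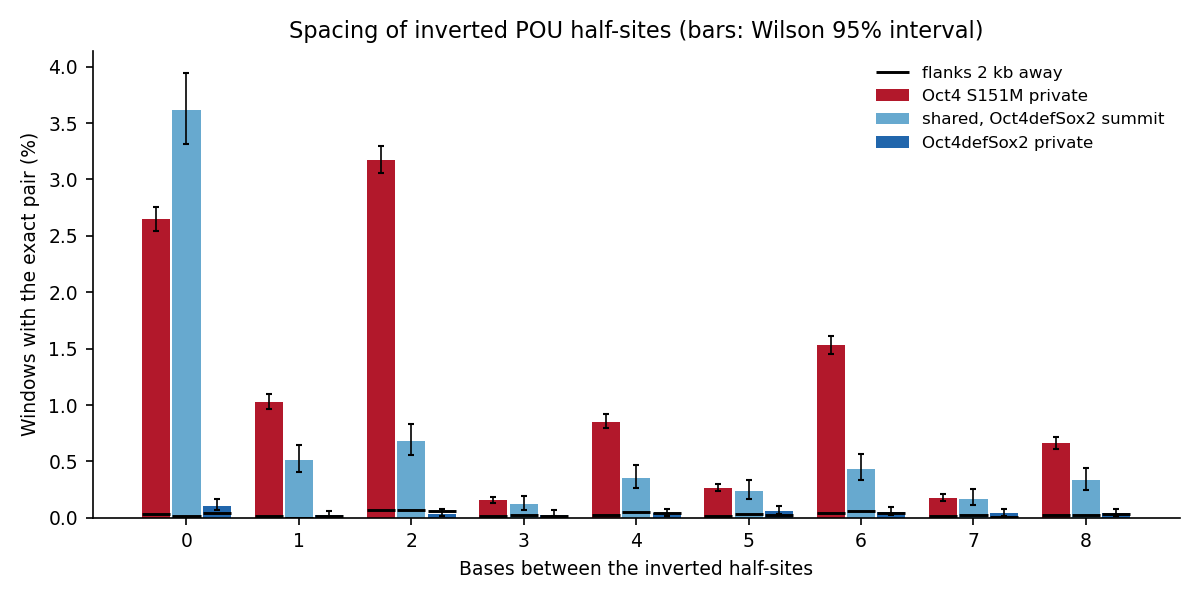
Percentage of windows with an exact pair of inverted POU words, by the number of bases between them, in private Oct4 S151M, shared and private Oct4defSox2 sites, with Wilson 95% intervals as error bars and black lines for flanks 2 kb away. At 2 bp the private Oct4 S151M sites stand at 3.18%, the shared sites at 0.682% and the private Oct4defSox2 sites at 0.0342%.

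Motifs of other factors were commoner at Oct4defSox2 sites. The AP-1 motif, read by Fos and Jun proteins that are abundant in fibroblasts, was in 6.67% of private Oct4 S151M windows (6.50 to 6.83), 14% of private Oct4defSox2 windows (13.5 to 14.6) and 14.6% of shared windows at the Oct4defSox2 summit, with flanks of 3.34%, 3.41% and 3.59%. The private classes differed by -7.37 points (-7.92 to -6.84). The Sox motif followed, with 6.47%, 15.8% and 13.9% over flanks of 5.98%, 6.15% and 5.88%, a difference of -9.37 points (-9.94 to -8.82) between the private classes. In private Oct4 S151M sites the Sox motif was thus close to its flanks. The KLF motif of the third cocktail factor was in 0.875% and 2.31% of private sites, a difference of -1.44 points (-1.68 to -1.22), and at 0.822% in the Oct4 S151M flanks.

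Motifs for TEAD factors, which act in the Hippo pathway, and for RUNX factors, which act in mesenchymal lineages, differed by less. The private classes differed by -2.15 points (-2.54 to -1.78) for TEAD and -2.25 points (-2.68 to -1.83) for RUNX. All 5 of these differences kept their sign at equal numbers. Private Oct4defSox2 sites had a median GC content of 39.8% and private Oct4 S151M sites of 36.3%, and the part of base composition in these shares was not tested.

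The other ChIP samples of the series were then read at the same sites, with a summit within 100 bp counted as bound. Wild-type Oct4 at day 1, with the same Sox2 and Klf4, had a summit at 30.2% of shared sites (29.5 to 31.0), 2.66% of private Oct4 S151M sites (2.55 to 2.77) and 3.52% of private Oct4defSox2 sites (3.26 to 3.80), against 0.115% or less of positions moved 10 kb. Shared sites exceeded private Oct4 S151M sites by 27.6 points (26.8 to 28.3). The private classes differed by -0.859 points (-1.16 to -0.575), a sign that turned to 0.303 points (0.0197 to 0.565) when sharing was counted within 250 bp. Under stricter lists it widened, to -2.51 points (-2.94 to -2.09) at equal numbers and -28.2 points (-30.0 to -26.3) in the top 5000 of each library, where a site is private if the other top list lacks it. In that list shared sites exceeded private Oct4 S151M sites by 57.4 points. Of the 8199 Oct4 sites themselves, 50.1% had both versions, 28.2% Oct4 S151M without Oct4defSox2, 7.38% the reverse and 14.3% neither, with median Oct4 scores of 13.8, 10.7, 9.06 and 7.21.

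The later sites of wild-type Oct4 and of Oct4defSox2 were then read at the pairs. For reference, wild-type Oct4 at day 1 had a summit at 43.8% (41.4 to 46.2) of pairs with SoxOct and no MORE and 29.4% (27.4 to 31.4) of MORE pairs. At day 5 it had one at 33.3% (31.1 to 35.6) of these SoxOct pairs and 22.5% (20.7 to 24.4) of MORE pairs. The wild-type lists held 8199, 4846 and 3614 summits at days 1, 5 and 7. At day 7 the contrast was wider, since of the SoxOct pairs 29.4% (27.2 to 31.6) had one, and of MORE pairs 8.21% (7.08 to 9.5). An Oct4defSox2 summit at day 5 stood at 2.66% (1.99 to 3.56) of SoxOct pairs and 13.5% (12 to 15) of MORE pairs. Over all its day 1 sites, Oct4defSox2 had a day 5 summit at 4.40% of those shared with Oct4 S151M and 0.769% of the private ones, a difference of 3.63 points (3.27 to 4.01) that grew to 6.42 at equal numbers and 22.3 (19.3 to 25.5) in the top 5000. The day 5 list of Oct4defSox2 is short, with 1034 summits, which limits every such percentage.

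Sox2 was measured in the Oct4defSox2 cocktail and not, in the samples analysed here, in that of Oct4 S151M. At day 1 a Sox2 summit of the Oct4defSox2 cocktail stood at 9.49% of private Oct4defSox2 sites (9.07 to 9.93), 7.74% of shared sites (7.30 to 8.20) and 0.347% of private Oct4 S151M sites (0.310 to 0.388). Private exceeded shared Oct4defSox2 sites, with a difference of -1.76 points (-2.38 to -1.13) for shared minus private. This was -3.43 at equal numbers, -5.30 at a score of at least 10, -11.5 in the top 5000 and -0.945 with sharing within 250 bp, so its size varied with the list while its sign did not. At day 5 the values were 15.3% and 10.1%. Sox2 of the other cocktails went the other way. In the wild-type Oct4 cocktail shared exceeded private Oct4defSox2 sites by 7.44 points (6.67 to 8.21) at day 1 and 2.28 at day 5. In a cocktail with Oct6, another POU factor, the differences were 1.84 and 0.871 points. The day 1 Sox2 summits of the Oct4defSox2 cocktail were commoner where the window held the single Sox motif, 15.8% against 8.29% of private sites without it. Where it held SoxOct the share was 3.37% (2.24 to 5.06). Any of the 6 Sox2 libraries had a summit at 28.1% of private Oct4defSox2, 29.1% of shared and 2.76% of private Oct4 S151M sites. Any of the 11 other ChIP samples had one at 34.1%, 55.5% and 6.39%.

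**Figure D5:**
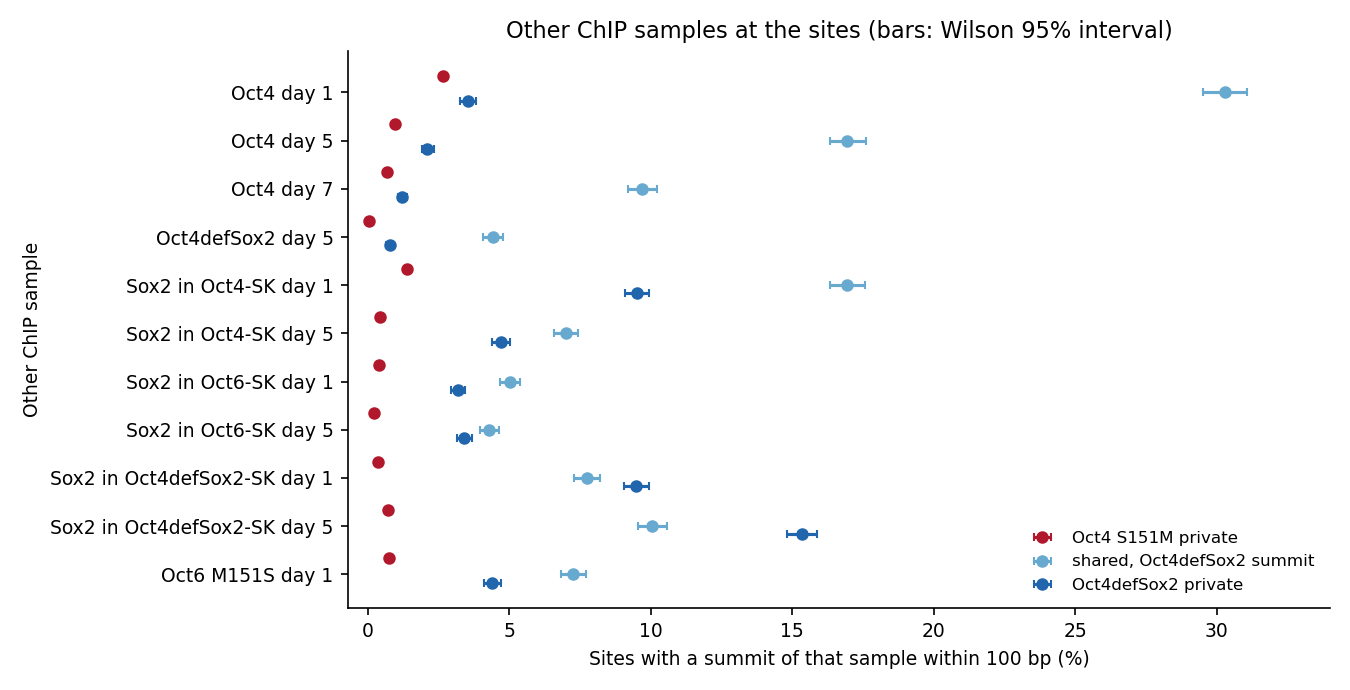
Percentage of private Oct4 S151M, shared and private Oct4defSox2 sites with a summit of each other ChIP sample within 100 bp, with Wilson 95% intervals. Private Oct4 S151M sites lie lowest in every sample, and private Oct4defSox2 sites pass the shared ones in the Sox2 samples of the Oct4defSox2 cocktail (9.49% against 7.74% at day 1).

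In the genome both versions bound mostly introns, 51.5% and 50.2%, and intergenic DNA, 45.7% and 46.1%. Sites within 1 kb of a transcription start made up 4.28% of Oct4 S151M and 6.39% of Oct4defSox2 sites, a difference of -2.11 points (-2.41 to -1.81), and 4.10% and 7.08% of the private classes, a difference of -2.98 points (-3.39 to -2.59). Among the top 5000 of each library these differences came to 0.120 (-0.810 to 1.05) and 0.147 points (-0.844 to 1.14), within counting error. Sites over 100 kb from a coding start were 39.2% and 39.1%, a difference of 0.110 points (-0.511 to 0.730), but at equal numbers they were 36.6% and 39.1%, a difference of -2.48 points (-3.24 to -1.72). Windows masked as repeats over at least 50% of their bases were 21.1% of Oct4 S151M and 8.50% of Oct4defSox2 sites, a difference of 12.6 points (12.2 to 13), and in MORE sites they were 26.7% and 20.5%.

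The genes near the sites were counted against all 21911 protein-coding genes. Of these, 50.7% had an Oct4 S151M summit within 10 kb of a start, 21.1% an Oct4defSox2 summit and 10.2% a shared summit, 47.2% had a private Oct4 S151M summit and 13.8% a private Oct4defSox2 summit, and 23.4% had one of the Oct4 S151M sites kept at equal numbers. Counts in the lists below are small and are to be read against these shares.

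Among 22 genes of naive pluripotency, 17 had an Oct4 S151M summit, 9 an Oct4defSox2 summit and 5 a shared one, namely Pou5f1, Sox2, Klf2, Fbxo15 and Gdf3, and at equal numbers 5 had an Oct4 S151M summit. The 77.3% and 40.9% lie above the 50.7% and 21.1% of all genes, and the 22.7% at equal numbers lies close to the 23.4%. No summit of either version lay near Esrrb, Dppa5a, Dppa3, Lin28a or Prdm14. The strongest private Oct4 S151M summit of the list lay 8316 bp from the start of Pou5f1, with a score of 211 and a Sox motif. The strongest private Oct4defSox2 summit was near Klf4, with 23.9, an AP-1 motif and an Oct4 S151M summit 238 bp away.

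Of 22 mesenchymal and fibroblast genes, 17 had an Oct4 S151M summit, 12 an Oct4defSox2 summit and 4 a shared one, and 12 had an Oct4 S151M summit at equal numbers, which is 54.5% against 23.4% of all genes. The 12 with Oct4defSox2 are 54.5% against 21.1%. The smooth muscle actin gene Acta2 had a shared summit 212 bp from its start with scores of 773 for Oct4 S151M and 43.4 for Oct4defSox2. Postn, which encodes the matrix protein periostin, had the strongest private Oct4 S151M summit, with 249 and no Oct4defSox2 summit within 89426 bp. Cdh2, the gene of N-cadherin, had the strongest private Oct4defSox2 summit, with 38.1 at 202 bp from the start. Its window held a SoxOct match, and an Oct4 S151M summit lay 323 bp away. Twist2, Snai1, Col1a1 and Tgfb2 had none. The smaller list of 10 AP-1 genes had 7 with Oct4 S151M, 3 with Oct4defSox2 and 2 with Oct4 S151M at equal numbers, and its shared summit at Jund, 115 bp from the start with an octamer, was a site where Oct4defSox2 scored higher (94.7 against 54.3). Fosl1, Fosl2 and Junb had none, and Atf3 had the strongest private summit of both versions (76.2 and 11.2).

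Of 15 epithelial genes 5 had an Oct4 S151M and 4 an Oct4defSox2 summit, 2 had an Oct4 S151M summit at equal numbers, and 8 had neither. Dsp, which encodes the desmosomal protein desmoplakin, had a shared summit of 25.8 and 5.48 and, 8137 bp from its start, a private Oct4 S151M summit of 531 with an AP-1 motif, and Cldn4 had the strongest private Oct4defSox2 summit (11.3). Of 15 neural progenitor genes 10 and 8 had one, with 4 shared, and 5 had an Oct4 S151M summit at equal numbers. Sox21 held a shared SoxOct site 6675 bp from its start at which Oct4defSox2 scored higher, 222 against 150.5, and Neurog2 had the strongest private Oct4 S151M summit, a MORE+1 site of 349, while Otx2 had the strongest private Oct4defSox2 summit (19.1). Sox1, Sox3, Pou3f2, Pou3f4 and Olig2 had none. Of 11 trophectoderm and endoderm genes 4 and 3 had one, and 3 an Oct4 S151M summit at equal numbers, led by Elf5 among the shared (11 and 16.4), Eomes among the private Oct4 S151M (112) and Gata4 among the private Oct4defSox2 summits (11.1).

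The genes of the cocktail are described in full, because the retroviruses carry their coding sequences. The shared sites at Pou5f1 and Sox2 both had a SoxOct match, with 2 mismatches at Pou5f1 and 1 at Sox2. They are printed here to show the element at the sites both versions shared near the genes of Oct4 and Sox2.
Near Pou5f1, chr17:35504025-35504087, minus strand: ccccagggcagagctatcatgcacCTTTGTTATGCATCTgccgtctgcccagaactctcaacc
Near Sox2, chr3:34654025-34654087, plus strand: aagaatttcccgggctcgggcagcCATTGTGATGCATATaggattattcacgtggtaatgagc

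Upstream of Pou5f1 the site scored 148 for Oct4 S151M and 48.5 for Oct4defSox2 with the summits 18 bp apart, 1961 and 1979 bp from the start, and wild-type Oct4 had a summit there at day 1. Its fold enrichment in Oct4 S151M was 9.38. The OG2 transgene carries Oct4 promoter sequence too, and reads from it cannot be told apart from those of the gene itself. Within 50 kb of the start Oct4 S151M had 5 summits and Oct4defSox2 3, of which 1 in an exon scored 9.86 and coincided with wild-type Oct4 and Sox2 summits.

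The site 3639 bp from the start of Sox2 scored 42.8 for Oct4 S151M, its only summit within 50 kb, and 9.86 for Oct4defSox2, and had no wild-type Oct4 summit at day 1. Oct4defSox2 had 2 further summits near Sox2, of 12 at 547 bp and of 8.25 in the exon. At Klf4 the versions shared no site within 50 kb, with 4 Oct4 S151M summits of 9.09 to 14.6 and 5 Oct4defSox2 summits of 4.03 to 23.9. A pair of the latter, of 5.65 and 4.03, lay in exons. Exon summits at the 3 genes were thus seen in Oct4defSox2 and not in Oct4 S151M. Wild-type Oct4 at day 1 also had a summit at each of these exon sites. Whether their reads come from viral copies was not tested.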

How the data were processed

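ChIP-seq was analysed for 2 samples at day 1, Oct4 S151M and Oct4defSox2, with 1 library each. The submitters' processing notes and the study's methods give paired-end reads aligned to mm10 with Bowtie2 2.2.5, removal of poorly mapped and duplicate reads with SAMtools, and MACS2 peak calling per library at a p-value of 0.0001 with several summits per peak. The summit score deposited by the authors is the MACS2 −log10 p-value. The authors also deposited fold enrichment over the local background, a ratio, which was used here for Oct4 S151M. Read depth was not analysed here, scores were not normalised between libraries, and the input samples were not analysed here.

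Summits on chromosomes 1 to 19, X and Y were kept, which left out 19 Oct4 S151M and 10 Oct4defSox2 summits. A summit was shared when the other library had one within 100 bp, and private otherwise. The background for sharing was the same positions moved 10 kb to either side, and for motifs windows centred 2 kb to either side. Consensus motifs were scanned on both strands of the 201-bp window around each summit in the GRCm38 genome sequence, the assembly that mm10 names, whereas the authors scanned with position weight matrices. MORE and MORE+1 were allowed 1 mismatch, SoxOct and PORE 2, and the others 0. Genes and starts came from the GENCODE M21 basic annotation. Shares carry Wilson 95% intervals and differences Newcombe 95% intervals, which cover counting error among sites only, as neighbouring sites and sites of 1 library are not replicates. A difference was taken to be past counting error when its interval left out 0. No p-value was computed, because each group had 1 library.

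The named sites are the 2 highest-ranked with MORE or MORE+1 and no SoxOct, the 2 with SoxOct and no MORE, and the 2 with no POU motif in each of the shared, Oct4 S151M private and Oct4defSox2 private classes, leaving out 1 chromosome whose sequence is not printed here. Within each gene list the gene with the highest-scored shared and private summits within 10 kb of a start was named, as were genes with no summit where these numbered 5 or fewer. The comparison, the members, the motifs and the gene lists were chosen with earlier results of these data known. Steps were tested on simulated sites and run with Python 3.11.15, numpy 2.4.6, pandas 2.3.3, numba 0.67.0 and matplotlib 3.10.9.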

Additional observations from a re-analysis of the deposited data

How the results depend on the processing

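Over 12 alternatives to the processing, 23 differences gave 219 values, of which 208 kept their direction and their side of counting error, 2 no longer passed it and 9 changed sign, and 14 of the 23 results kept both under every alternative that was run, though their sizes moved. The alternatives were sharing within 50 or 250 bp, a score of at least 10, 1 summit per peak, equal numbers, the top 5000 of each library, a motif window of 50 bp to each side, 1 mismatch more or fewer, promoters within 5 kb, leaving out the 1612 sites with summits of all 3 antibodies, and leaving out windows masked over at least 50% of their bases, which was chosen after seeing the data and turned no result, though the SoxOct difference shrank to -1.05, and to -0.623 at equal numbers. Shared Oct4defSox2 minus shared Oct4 S151M sites came to 0.00322 points at equal numbers and 0 in the top 5000, since lists of one length share nearly equal counts. In the top 5000, MORE at shared minus private Oct4 S151M sites was 12.2, SoxOct at shared minus private Oct4defSox2 sites -7.69, and promoter sites 0.120 over all and 0.147 over private sites. With 1 mismatch fewer, the difference for no POU motif was 0.621 and for MORE at shared minus private Oct4 S151M sites 0.618. With 1 mismatch more, the SoxOct difference was 0.267, and 1.44 at equal numbers. Within 250 bp, wild-type Oct4 at private sites differed by 0.303. Sizes moved most with the match rule and the list. With 1 mismatch fewer and 1 more, SoxOct at shared minus private sites was 1.76 and 13.2 in Oct4 S151M and 1.80 and 19.96 in Oct4defSox2, and MORE between the private classes 3.38 and 49.5. In the top 5000, the SoxOct difference was -9.24, the octamer difference -5.98 and the private KLF difference -0.733. In the 50-bp windows the private AP-1 difference was -3.96. The cause of these changes was not tested. The 3 results defined at equal numbers have no separate value under that alternative.

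Leaving out a library was not possible, as each version had 1. No paired analysis was possible because each group had 1 library. Read depth was not analysed here, so the length of a list, and with it each private class, cannot be told apart from sequencing depth or ChIP yield, and a private site had no summit called in the other library rather than no binding.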
